A study of Homo sapiens with 6 samples.

Results

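Glutamine deprivation was compared with control medium in 95D cells, a wild-type human lung cancer line, with RNA-seq libraries made from total RNA depleted of ribosomal RNA. Plated cells were first kept in complete DMEM with 10% serum for 24 hours. For the deprived group the medium was then exchanged for DMEM lacking glutamine and containing 10% dialyzed serum, in which the cells stayed for 48 hours, the same 48 hours that the controls spent in control DMEM. The labels name dialyzed serum for the deprived media alone, so the absence of glutamine and the change of serum cannot be told apart in the comparison with control. Of the 6 labelled libraries, 5 could be matched to a column by name, and 3 of those 5 entered the comparison: control replicates 1 and 2 and glutamine deprivation replicate 1. The other glutamine-deprived library is not analysed here. The 2 glucose-deprived libraries, grown in glucose-free DMEM with the same dialyzed serum, added to the estimate of spread and served as a second reference. Whether the libraries of a group stem from separate cultures is not stated. The p-values therefore refer to the spread between libraries, possibly a technical one, and the lone glutamine-deprived library was assumed to vary like the others.

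Glutamine feeds the citric acid cycle through glutamate, gives nitrogen to purines, pyrimidines and asparagine, and supplies glutamate for glutathione. When amino acids run short, uncharged transfer RNAs activate the kinase GCN2, which phosphorylates the initiation factor eIF2 alpha. General translation then drops while the mRNA of the transcription factor ATF4 is translated more, and ATF4 with its partners of the C/EBP family, among them CHOP (DDIT3), raises genes of amino acid synthesis, uptake and stress.

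Levels are FPKM, fragments relative to transcript length and to all mapped fragments, after scaling between libraries, and fold changes are differences of log2(FPKM + 1), which understate the change of genes near 1 FPKM. Inferred depth was 34530000 reads in the glutamine-deprived library and 35470000 and 48930000 in the controls. Of the 16598 genes that reached 1 FPKM in any library, 8478 (51.1%) differed between glutamine deprivation and control at an adjusted p under 0.05 from limma with Benjamini-Hochberg adjustment, and these are named called genes below. The calls split into 4096 higher (24.7% of genes tested) and 4382 lower (26.4%), and 403 of the former and 118 of the latter differed at least 2-fold on the log2(FPKM + 1) scale. Of all calls 48.3% were higher, a share that became 68.2% with upper-quartile scaling and 67.5% without scaling, which moved the median log2 fold change of all genes from 0.04 to 0.18 and 0.17. The call count was 5620 without control replicate 1 and 5537 without control replicate 2. The controls resembled each other more (Pearson r of 0.991 across genes, which are not independent replicates) than the glutamine-deprived library resembled either (0.958 and 0.959).

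Direction followed abundance (Spearman rho of -0.55 between log2 fold change and mean level across genes, a description). Of the 1240 genes with a mean level of at least 30 FPKM, 997 were called lower and 68 higher, with a median log2 fold change of -0.47. Of the 4557 genes between 1 and 3 FPKM, 1599 were called higher and 151 lower, with a median of 0.25. The mean level includes the glutamine-deprived library, and low genes can enter the test through that library alone, where they are high. The filter and the classes can thus favour rises at the low end, and their part in these counts and in the rho was not tested. Over the 4473 genes of at least 10 FPKM the median was -0.32, 9.95% were called higher and 65.7% lower, and falls of abundant gene groups below are set against that background. Calls also moved with exon length and GC content: with genes split into 5 equal classes, the class of longest genes had 1381 higher and 639 lower calls, and the class of highest GC content 1097 and 475. In bulk RNA, fewer transcripts per cell and fewer cells that make them cannot be told apart, and the part of abundance in the results that follow was not tested. With the trend over GC content and exon length removed, 4316 genes were called higher and 3922 lower.

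**Figure D1:**
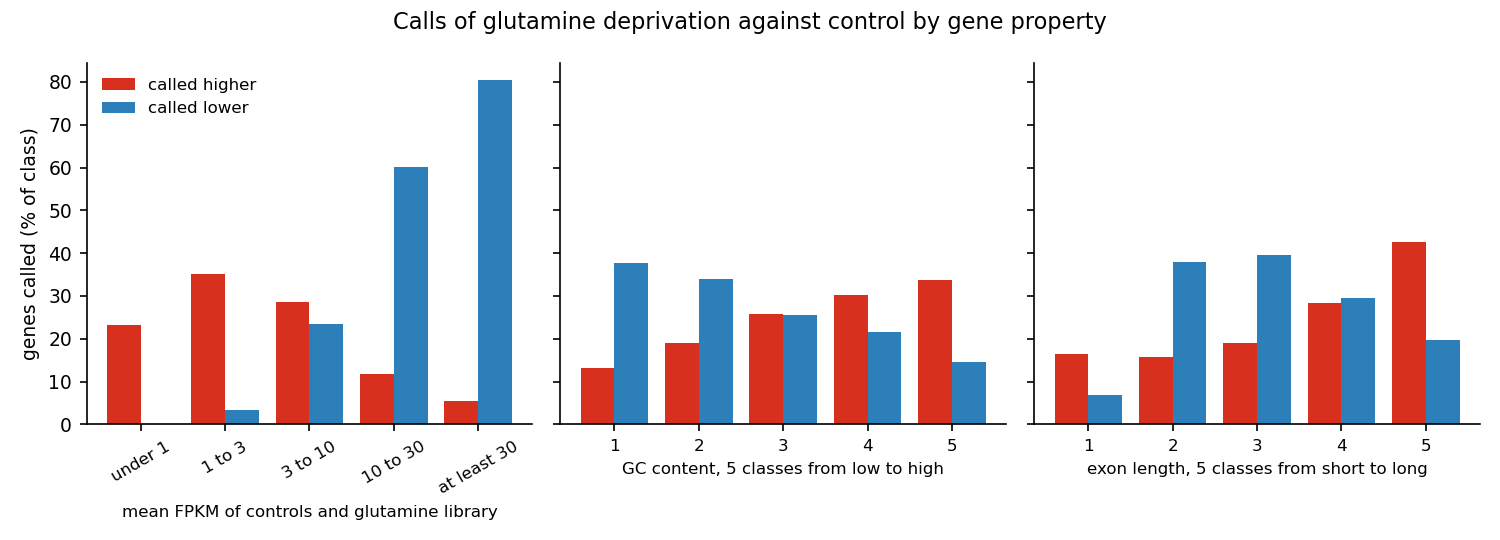
Share of genes called higher (red) or lower (blue) in glutamine deprivation against control, in percent of each class (y axis), by mean FPKM and by 5 equal classes of GC content and of exon length (x axes). Lower calls rise to 80.4% in the class of at least 30 FPKM, and higher calls to 42.5% in the class of longest genes.

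The label as a lung cancer line was checked against markers. The intermediate filament gene VIM stood at 77.7 and 76.2 FPKM in the controls and 85.1 in glutamine deprivation, and KRT18, a keratin of simple epithelia, at 21.7 and 21.0 against 16.9. The mesenchymal cadherin CDH2 was present at 8.70 and 8.88 against 9.72. The epithelial genes EPCAM and CDH1 stayed at or under 0.249 FPKM in the 5 libraries, and the keratin genes KRT7 and KRT19 at or under 0.00729. The surfactant genes SFTPA1, SFTPB and SFTPD were at 0 in each library. NKX2-1, a lung lineage factor, lay near 1 FPKM in all 5 libraries. Of 25 markers of other cell types, 23 were under 1 FPKM in the glutamine-deprived library and 24 in each control, and their summed level was 8.20 against 6.22 and 4.97. PTPRC, the leukocyte surface phosphatase, was at 0 in the glutamine-deprived library and under 0.005 FPKM in the controls. The collagen gene COL1A1 was at 1.83 FPKM in glutamine deprivation against 0.642 and 0.575 in the controls. SYP was the marker of this set above 1 FPKM in the controls, at 2.52 and 2.00, and stood at 3.17 in glutamine deprivation.

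Genes of the ATF4 and CHOP response rose together. Of 28 listed members 26 were tested, 23 were called higher and 0 lower, and their median log2 fold change was 0.79 against 0.04 for all genes tested. CHAC1, an enzyme that cleaves glutathione and a target of ATF4, stood at 1.29 and 0.564 FPKM in the controls and 9.65 in glutamine deprivation (log2 fold change 2.49 ± 0.20 SE, adjusted p = 7.65e-05). The glutamine-deprived library lay above both controls, which themselves differed from each other on about 90.2 and 55.2 inferred reads, against 742 in glutamine deprivation. CHAC1 lies at chr15:40952962-40956519 on the plus strand of GRCh38.

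SESN2, a stress-induced inhibitor of mTORC1 that senses leucine, was at 15.9 and 15.5 FPKM in the controls and 49.4 in glutamine deprivation (1.59 ± 0.05, adjusted p = 1.43e-05). DDIT4 (REDD1), which restrains mTORC1 through the TSC complex, was at 25.3 and 20.4 against 57.2 (1.29 ± 0.11, adjusted p = 7.83e-05). Both lay above either control. DDIT3, encoding CHOP, went from 5.30 and 5.20 to 15.3 FPKM (1.38 ± 0.06), and ASNS, which makes asparagine from aspartate with glutamine as nitrogen donor, from 23.3 and 21.2 to 48.4 (1.09 ± 0.06). Smaller rises were those of the pseudokinase TRIB3 (0.79), the transcription factor ATF3 (0.80), the phosphatase subunit PPP1R15A (0.54) and the serine synthesis enzyme PSAT1 (0.67). The mitochondrial PEP carboxykinase PCK2 rose by 1.16 and the secreted factor STC2 by 1.23.

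The mRNA of ATF4 itself changed little. It stood at 222 and 217 FPKM in the controls and 248 in glutamine deprivation, above both (0.17 ± 0.05, adjusted p = 0.0265). The adjusted p was 0.138 without control replicate 1 and 0.219 without control replicate 2, and 0.102 with the replicate number as a block, so the call rests on both controls. The 3 tested members without a call were ATF5 (-0.08), the death receptor gene TNFRSF10B (-0.07) and KLHL24 (0.04).

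Promoters are shown for 3 called genes of uptake and stress whose window held the letters TGATGNAA, the composite C/EBP and ATF element known from ATF4 targets. Each is the RefSeq window from 250 bases before to 50 bases after the start in GRCh38.p14, printed 5′ to 3′ on the gene's strand, and the capitals mark the match on either strand. CHAC1 is chr15:40953221-40953520 (plus strand), ASNS chr7:97872359-97872658 (minus) and SLC7A1 chr13:29595639-29595938 (minus).
CHAC1: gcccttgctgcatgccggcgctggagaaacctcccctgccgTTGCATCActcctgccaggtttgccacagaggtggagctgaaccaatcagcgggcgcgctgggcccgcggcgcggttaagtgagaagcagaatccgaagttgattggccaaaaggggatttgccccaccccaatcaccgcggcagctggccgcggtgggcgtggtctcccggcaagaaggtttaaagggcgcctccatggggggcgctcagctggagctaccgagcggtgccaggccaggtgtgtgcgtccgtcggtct
ASNS: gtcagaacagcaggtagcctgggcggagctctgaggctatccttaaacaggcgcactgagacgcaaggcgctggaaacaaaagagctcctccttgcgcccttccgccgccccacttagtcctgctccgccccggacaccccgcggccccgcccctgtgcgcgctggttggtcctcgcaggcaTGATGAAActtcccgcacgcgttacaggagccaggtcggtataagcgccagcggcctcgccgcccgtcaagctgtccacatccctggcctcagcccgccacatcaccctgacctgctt
SLC7A1: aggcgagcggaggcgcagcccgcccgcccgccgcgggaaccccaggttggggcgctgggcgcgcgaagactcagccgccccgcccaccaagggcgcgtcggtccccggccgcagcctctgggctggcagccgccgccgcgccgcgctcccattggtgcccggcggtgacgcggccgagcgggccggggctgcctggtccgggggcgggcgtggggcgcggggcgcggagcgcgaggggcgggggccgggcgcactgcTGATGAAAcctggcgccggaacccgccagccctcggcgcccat
The match starts 209 bases before the start in CHAC1, on the opposite strand, 68 bases before it in ASNS, and 7 bases after it in SLC7A1. Windows of 7 of the 24 listed ATF4 and CHOP genes with an entry held these letters, and 6 of 20 amino acid transporters, against 254 of 9832 genes tested (2.58%) and 1217 of 27305 genes in the table (4.46%). Of the 6 transporters with these letters SLC7A1, SLC1A4 (1.13), SLC1A5 and SLC38A1 (0.20) were called higher, and SLC3A2 (0.03) and SLC1A3 (-0.07) had no call. The call of SLC38A1 was lost without control replicate 1 (adjusted p = 0.11) and 2 (adjusted p = 0.108). A match describes the letters of the window and is not a measured binding site. The element is known from ATF4 targets, and the ATF4 and CHOP list was drawn up from genes of that response. Its share in that list was thus largely fixed in advance and tests nothing about the levels measured here. The transporter list was chosen with earlier results of these data known, so its share is a description.

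Amino acid transporters rose in part. Of 21 tested members 14 were called higher and 1 lower, with a median log2 fold change of 0.35, and 10 and 9 were called higher without control replicate 1 and 2. SLC7A1, the cationic amino acid carrier, was at 14.8 and 15.2 FPKM in the controls and 40.0 in glutamine deprivation (1.36 ± 0.05, adjusted p = 1.51e-05), above both. SLC6A9, a glycine carrier, went from 1.37 and 1.15 to 5.50 FPKM (1.53 ± 0.09). SLC7A11, the cystine and glutamate exchanger, went from 8.15 and 8.24 to 18.8 FPKM (1.11 ± 0.05). The carriers of glutamine did not move as a group. SLC1A5 rose from 72.8 and 72.5 to 107 FPKM (0.55 ± 0.06) and SLC7A5, the light chain that exchanges glutamine for leucine, from 56.6 and 57.3 to 94.1 (0.72). SLC3A2, the heavy chain that pairs with SLC7A5 and SLC7A11, stood at 39.4 and 42.0 against 41.7, between the controls and without a call, and SLC38A2 (0.11) had no call either. SLC36A4 was the member called lower, by -0.34, and it had no call without scaling (adjusted p = 0.0525).

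Of 24 mTORC1 brakes and amino acid sensors 10 were called higher and 1 lower, with a median of 0.11. Leaving out either control left 5 called higher. After SESN2 and DDIT4 came NPRL3, a subunit of the GATOR1 complex that inhibits the Rag GTPases, from 1.85 and 1.95 to 4.05 FPKM (0.80). RRAGA, a Rag GTPase, was the member called lower, from 15.4 and 15.7 to 9.77 (-0.62). EIF2AK4, encoding GCN2, was without a call at 5.68 and 5.65 against 5.97.

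**Figure D2:**
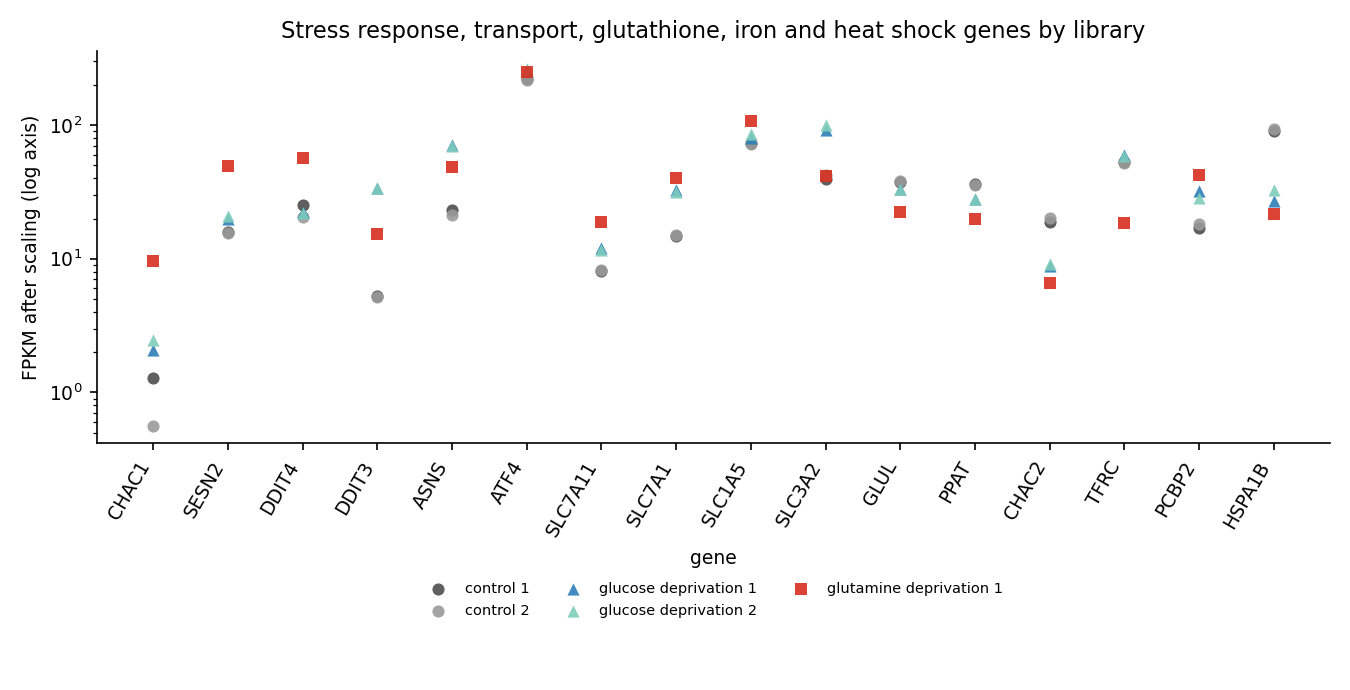
FPKM after scaling (log axis) of 16 genes in each library: controls as grey circles, glucose deprivation as blue and green triangles, glutamine deprivation as red squares. CHAC1, SESN2 and DDIT4 are highest in glutamine deprivation, while TFRC and CHAC2 are lowest there, at 18.6 and 6.61 FPKM.

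Enzymes that use or make glutamine, glutamate, asparagine and proline went both ways. Of 24 tested, 4 were called higher and 11 lower, with a median of -0.15 that became 0.02 with upper-quartile scaling. The list's median level was 20.8 FPKM. Genes between 10 and 30 FPKM had 60.1% called lower and 11.7% higher, and the list median did not lie below theirs of -0.26. GLUL, glutamine synthetase, was at 37.3 and 38.0 FPKM in the controls and 22.6 in glutamine deprivation (-0.72 ± 0.05, adjusted p = 4.31e-05), below both controls. PPAT, which opens purine synthesis by taking nitrogen from glutamine, fell from 36.2 and 35.4 to 19.9 (-0.81 ± 0.05). OAT (-0.74) and ALDH18A1 (-0.58), which link glutamate to ornithine and proline, fell as well. GLUD1, glutamate dehydrogenase, fell from 64.8 and 63.8 to 50.2 (-0.35), and GOT1, the cytosolic aspartate aminotransferase, by -0.49. Against these, ASNS, the transaminase GPT2 (0.65), CAD, which opens pyrimidine synthesis (0.52), and ASS1 (0.41) rose. Of 25 nucleotide synthesis genes tested 18 were called lower and 3 higher, with a median of -0.36, near that of genes of at least 10 FPKM.

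Among serine and folate enzymes 7 of 16 tested were called higher and 4 lower, with a median of 0.06; the count of higher calls was 4 without control replicate 1 and 5 without control replicate 2. ALDH1L2, a mitochondrial folate enzyme, went from 3.81 and 3.54 to 8.74 FPKM (1.06), and PHGDH, the entry to serine synthesis, from 38.2 and 36.3 to 50.5 (0.43). MTHFD2, a mitochondrial folate enzyme, was without a call at 60.4 and 57.8 against 58.3. Cytosolic aminoacyl-tRNA synthetases, which load transfer RNAs and of which some are ATF4 targets, had 3 of 20 called higher and 9 lower. Their median of -0.15 became 0.02 with upper-quartile scaling. It did not lie below the -0.26 of genes between 10 and 30 FPKM, of which 60.1% were called lower. The synthetases had a median level of 29.4 FPKM. CARS1 (0.57) and GARS1 (0.42) rose while RARS1 (-0.72) and KARS1 (-0.59) fell.

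The paired enzymes of glutathione breakdown moved apart. CHAC2, the slower and constitutive relative of CHAC1, stood at 18.7 and 20.1 FPKM in the controls and 6.61 in glutamine deprivation (-1.42 ± 0.08, adjusted p = 2.96e-05), below both. In glutamine deprivation the level of CHAC1, 9.65 FPKM, was thus above that of CHAC2, whereas it was below it in both controls. CTH, which makes cysteine from cystathionine, rose from 11.0 and 10.7 to 25.4 FPKM (1.16 ± 0.10), as did SLC7A11. Genes of glutathione synthesis and use had lower levels: GCLM, the regulatory subunit of glutamate-cysteine ligase, went from 9.04 and 9.93 to 6.56 (-0.47), the synthetase GSS from 8.70 and 9.07 to 6.95 (-0.31) and GPX4, which reduces lipid peroxides, from 189 and 185 to 137 (-0.45). The peptidase LAP3 (-0.61), the transferases GSTP1 (-0.48) and GSTM3 (-0.48), GGCT (-0.41) and the peroxidase GPX1 (-0.41) fell, GGT7 rose (0.63), and CBS was without a call (0.14). MGST1 (-0.45) lost its call without control replicate 2 (adjusted p = 0.0507), the reductase GSR (-0.28) with upper-quartile scaling (adjusted p = 0.11) and CNDP2 (-0.23) without either control (adjusted p = 0.0641 and 0.055). GCLC, the catalytic subunit, was called at -0.21, a call absent with upper-quartile scaling (adjusted p = 0.481) and without control replicate 1 or 2 (adjusted p = 0.109 and 0.118). In all, 13 of 18 tested genes of glutathione synthesis and breakdown were called lower and 4 higher, with a median of -0.36, near the -0.32 of genes of at least 10 FPKM.

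Most mRNAs of the mitochondrial genome rose while nuclear genes of the respiratory chain fell. Of the 13 mitochondrially encoded mRNAs 10 were called higher and 1 lower, with a median log2 fold change of 1.76, and together they made up 1.51% of summed FPKM in glutamine deprivation against 0.749% and 0.756% in the controls. MT-CYB, cytochrome b of complex III (chrM:14747-15887), was at 74.6 and 70.1 FPKM in the controls and 421 in glutamine deprivation (2.53 ± 0.10, adjusted p = 2.31e-05). MT-ND5, a subunit of complex I, went from 24.1 and 26.8 to 150 FPKM (2.52 ± 0.15). Both were above either control. MT-ND4 (2.39), MT-ND4L (2.21), MT-ND1 (1.96), MT-ND2 (1.77) and MT-ATP6 (1.76) rose by similar amounts, MT-CO1 (1.08) and MT-CO2 (0.75) by less.

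The mRNAs of the mitochondrial genome did not change by 1 factor. MT-CO3 was without a call at 2077 and 1955 FPKM in the controls against 1868, and MT-ND3 at 111 and 76.0 against 77.7. MT-ND6, which lies on the strand opposite to the other 12 mRNAs (chrM:14149-14673), fell from 50.6 and 49.3 to 27.4 FPKM (-0.84 ± 0.13, adjusted p = 0.00107). Its neighbour MT-ND5 ends 1 base before MT-ND6, and MT-ATP8 overlaps MT-ATP6 as MT-ND4L overlaps MT-ND4, so these values can share reads where strand or overlaps were not resolved; the strand setting is not given in the sources used here. MT-ATP8 rose by 1.43 and had no call without control replicate 1 (adjusted p = 0.0552) or 2 (adjusted p = 0.0911). The ribosomal RNA MT-RNR2 went from 210 and 184 to 1349 FPKM (2.77), and MT-RNR1 from 93.9 and 87.9 to 476 (2.38), in libraries from which ribosomal RNA had been depleted. The tyrosine transfer RNA MT-TY, a gene of 66 bases, went the other way, from 9.34 and 18.2 to 3.64 FPKM (-1.60 ± 0.42, adjusted p = 0.0147). It had no call without control replicate 2 (adjusted p = 0.112).

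Of 41 nuclear genes of the respiratory chain 39 were called lower and 0 higher, with a median of -0.60. The list's median level was 39.7 FPKM, and genes of at least 30 FPKM had 80.4% called lower and a median of -0.47. CYCS, cytochrome c, was at 93.0 and 90.4 FPKM in the controls and 41.2 in glutamine deprivation (-1.13 ± 0.06), and NDUFB3, a complex I subunit, at 51.4 and 46.9 against 21.0 (-1.19 ± 0.09). Of 24 nuclear factors that replicate, transcribe or process mitochondrial DNA and RNA 18 were called lower and 0 higher, with a median of -0.47. These factors had a median level of 13.6 FPKM, and genes between 10 and 30 FPKM had 60.1% called lower and a median of -0.26. SLIRP, which stabilises mitochondrial mRNAs, fell from 36.1 and 35.2 to 15.7 (-1.13), TFAM, which packages and transcribes mitochondrial DNA, from 32.2 and 32.8 to 19.5 (-0.71), and POLRMT, the mitochondrial RNA polymerase, stayed without a call at 14.3 and 14.7 against 14.8. Of 27 genes of pyruvate entry and the citric acid cycle 16 were called lower and 1 higher, with a median of -0.39. Their median level was 18.7 FPKM, and the share called lower was near that of all genes between 10 and 30 FPKM (60.1%, median -0.26). PDHB (-0.69) and IDH1 (-0.63) were among the lower genes. The higher one was pyruvate carboxylase PC (0.39), whose call was lost without control replicate 1.

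**Figure D3:**
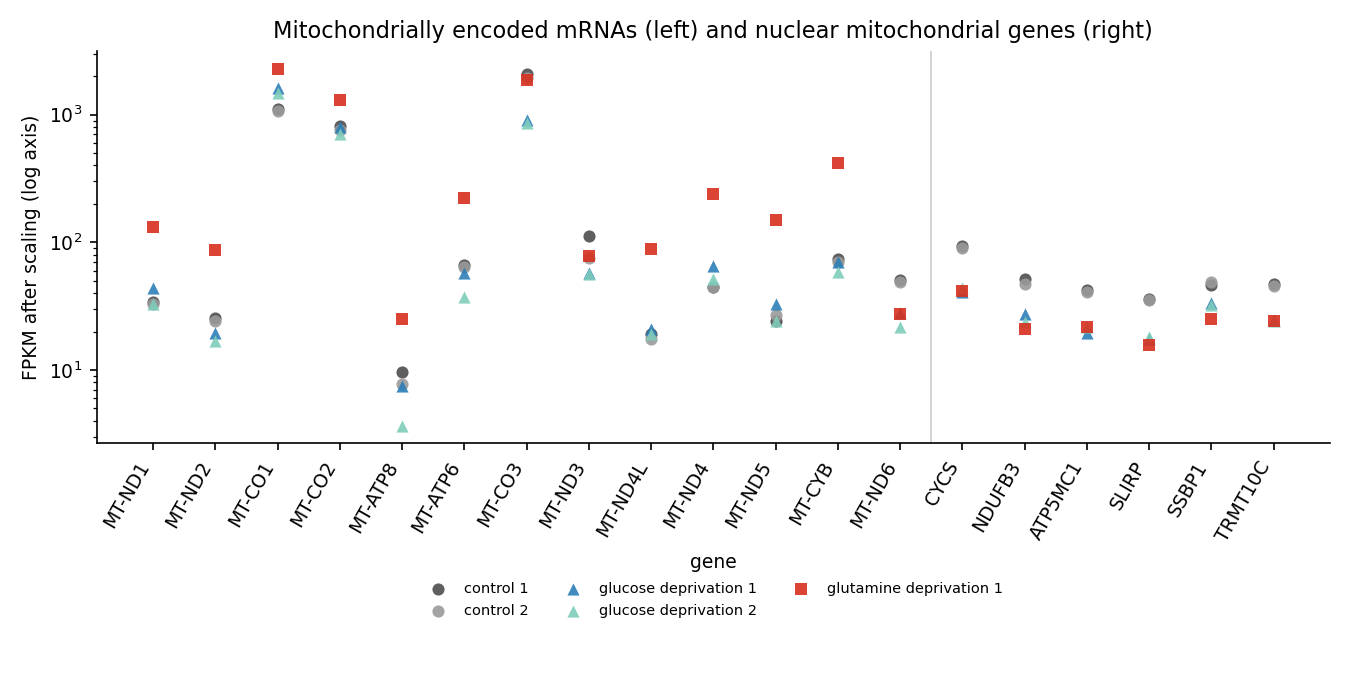
FPKM after scaling (log axis) of the 13 mitochondrially encoded mRNAs (left of the line) and 6 nuclear genes of mitochondrial function (right) in each library, with symbols for control, glucose deprivation and glutamine deprivation. Glutamine deprivation (red squares) is highest for 10 of the 13, among them MT-CYB at 421 FPKM, and below both controls for the 6 nuclear genes.

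Iron genes were led by the receptor for uptake. TFRC, the transferrin receptor, whose mRNA is kept stable by iron regulatory proteins when iron is low, was at 52.9 and 52.4 FPKM in the controls and 18.6 in glutamine deprivation (-1.46 ± 0.05, adjusted p = 1.43e-05), below both. HMOX1, which frees iron from heme, went from 10.0 and 11.0 to 4.65 (-1.02 ± 0.08). PCBP2, an RNA-binding protein that also acts as an iron chaperone, rose from 17.1 and 18.3 to 42.5 (1.22 ± 0.08). Of the ferritin subunits FTL fell from 219 and 212 to 152 (-0.50), and FTH1 was without a call at 96.4 and 93.8 against 103. Iron regulatory protein 1, ACO1, was called at -0.32, a call lost without scaling, and IREB2, the other such protein, had no call (-0.02). Of 24 iron genes tested 3 were called higher and 11 lower, with a median of -0.20 and, with upper-quartile scaling, 8 higher and 10 lower. The list's median level was 11.4 FPKM. Genes between 10 and 30 FPKM had 60.1% called lower and 11.7% higher, and the iron median did not lie below theirs of -0.26.

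POLR2A parted from the rest of its complex. POLR2A, the catalytic subunit of RNA polymerase II, was at 11.5 and 13.5 FPKM in the controls and 46.4 in glutamine deprivation (1.81 ± 0.11, adjusted p = 3.77e-05), above both. Of the other 11 subunits 10 were called lower and 0 higher, and POLR2D had no call (-0.10). The median level of the complex was 24.5 FPKM and its median log2 fold change -0.54. Genes between 10 and 30 FPKM had 60.1% called lower and 11.7% higher, with a median of -0.26. The second largest subunit POLR2B went from 54.8 and 54.5 to 36.6 FPKM (-0.56), and the small subunits POLR2K from 30.5 and 30.5 to 14.2 (-1.05) and POLR2L from 98.6 and 84.3 to 46.2 (-0.97). POLR2F (-0.74), POLR2C (-0.68), POLR2H (-0.57), POLR2I (-0.52), POLR2G (-0.45) and POLR2E (-0.38) fell as well. POLR2J has close paralogs, so its fall (-0.50) is uncertain.

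Genes of other large nuclear proteins were mostly higher too. Of 26 listed transcription and chromatin factors, POLR2A included, 21 were called higher and 0 lower, with a median of 0.64. The list was chosen with earlier results of these data known, so the count is a description. Its median exon length was 12296.5 bases. In the class of longest genes 42.5% were called higher and 19.7% lower, with a median of 0.12. KMT2D, a histone H3 lysine methyltransferase, went from 2.59 and 2.89 to 11.5 FPKM (1.74 ± 0.08) and the remodeller subunit ARID1A from 3.19 and 3.38 to 9.22 (1.25). In the glutamine-deprived library the summed level of sense intronic RNAs was 1107 FPKM before scaling. It was 663 and 714 in the controls and 1080 and 958 in glucose deprivation. Genes that reached 1 FPKM numbered 15877 in glutamine deprivation, 13804 and 13780 in the controls, and 14772 and 14522 in glucose deprivation. The part of these differences in the rise of the long transcripts was not tested. With the trend over GC content and exon length removed the median became 0.33, with 16 higher and 1 lower. SRRM2, a scaffold of nuclear speckles, rose from 13.1 and 15.1 to 51.2 FPKM (1.79 ± 0.11) and SON, the other scaffold, from 22.7 and 24.6 to 33.2 (0.47). Splicing factors of the SR family were called lower: SRSF7 fell from 60.4 and 68.1 to 30.3 (-1.06), SRSF3 from 75.1 and 76.7 to 38.2 (-0.97) and SRSF2 from 110 and 116 to 63.0 (-0.83). Of 29 SR and speckle genes tested 16 were called lower and 4 higher, and their median of -0.28 did not lie below the -0.32 of genes of at least 10 FPKM. The higher calls numbered 2 without control replicate 2 and 8 with upper-quartile scaling.

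The nuclear long RNAs NEAT1 and MALAT1 rose. The list that joins them with hosts of small nucleolar RNAs was called lower about as often as genes of like abundance. NEAT1, the RNA that scaffolds paraspeckles, was at 4.93 and 5.89 FPKM in the controls and 24.4 in glutamine deprivation (1.99 ± 0.13, adjusted p = 3.85e-05), above both, and MALAT1, a speckle RNA, at 92.3 and 95.5 against 162 (0.78). SNHG6 went from 27.3 and 24.8 to 18.9 (-0.44) and SNHG15 from 24.8 and 25.3 to 17.2 (-0.52). Of 21 RNAs of this list tested, NEAT1 and MALAT1 included, 13 were called lower and 4 higher, with a median of -0.30. The list's median level was 16.6 FPKM, and genes between 10 and 30 FPKM had 60.1% called lower and a median of -0.26. With upper-quartile scaling 7 were lower and 6 higher.

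**Figure D4:**
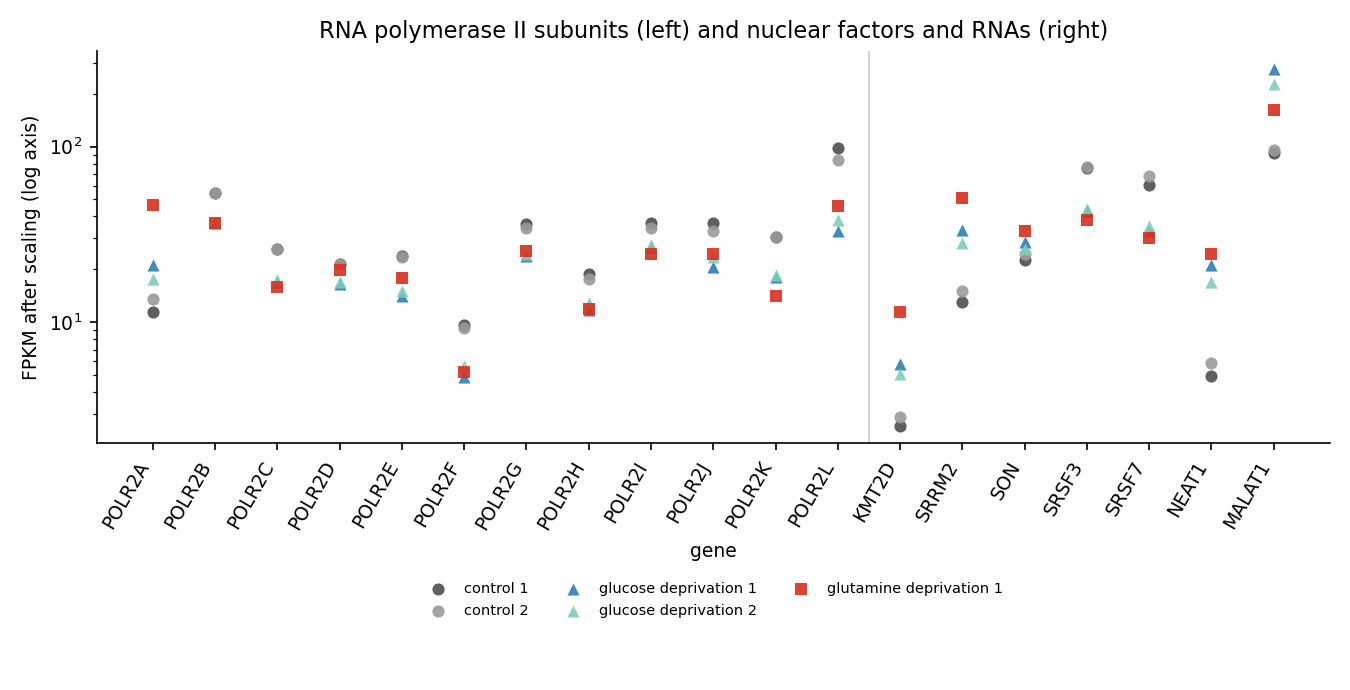
FPKM after scaling (log axis) of the 12 RNA polymerase II subunits (left of the line) and 7 nuclear factors and RNAs (right) in each library. POLR2A in glutamine deprivation (red square, 46.4 FPKM) is above both controls, while the other 11 subunits are below them.

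Chaperones and protein turnover genes fell. Of 21 heat shock genes 17 were called lower and 0 higher, with a median of -0.77, lower than the -0.47 of genes of at least 30 FPKM. HSPA1B, the inducible HSP70, was at 90.0 and 93.9 FPKM in the controls and 21.7 in glutamine deprivation (-2.03 ± 0.09, adjusted p = 2.74e-05), below both. HSPA1B and HSPA1A have nearly identical sequences, so the split of reads between them is uncertain. HSPE1, the mitochondrial co-chaperonin, went from 78.0 and 74.3 to 29.97 (-1.32 ± 0.06), and HSPA8, the constitutive HSC70, from 299 and 343 to 146 (-1.13 ± 0.08). HSF1, the heat shock transcription factor, was without a call at 8.79 and 8.29 against 10.0. All 31 proteasome subunits were called lower, with a median of -0.67, from PSMC2 at -0.93 to PSMB2 at -0.33. The subunits had a median level of 30.8 FPKM, and 80.4% of genes of at least 30 FPKM were called lower.

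Endoplasmic reticulum chaperones and unfolded protein response genes held calls in both directions. Of 28 genes 16 were called lower and 5 higher, and their median of -0.25 did not lie below the -0.32 of genes of at least 10 FPKM, of which 65.7% were called lower. The higher calls numbered 3 without either control and 9 with upper-quartile scaling. The calcium-binding chaperone CALR went from 155 and 159 to 95.6 FPKM (-0.71), HSP90B1 from 172 and 176 to 122 (-0.51) and MANF from 24.8 and 24.1 to 13.2 (-0.85). SYVN1, a ubiquitin ligase of degradation from the reticulum, rose from 2.61 and 2.44 to 5.51 (0.89), and ERN1, the sensor IRE1 alpha, from 1.61 and 1.63 to 2.71 (0.50).

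Ribosome genes were lower at both ends of the pathway. Of 34 ribosome biogenesis genes 29 were called lower and 1 higher, with a median of -0.63. At a median level of 21.1 FPKM they compare with genes between 10 and 30 FPKM, 60.1% called lower with a median of -0.26. The nucleolar proteins NPM1, from 813 and 828 to 454 FPKM (-0.85), and NCL, from 209 and 203 to 116 (-0.83), were among the lower genes, and NOP16 fell the most (-1.26). Of 82 cytosolic ribosomal protein genes tested 72 were called lower and 0 higher, with a median of -0.42, about that of genes of at least 30 FPKM; 41 were called lower without control replicate 1, 54 without control replicate 2 and 46 with upper-quartile scaling. Ribosomal protein genes have many processed pseudogenes that can take part of their reads. MYC, a driver of ribosome genes, was without a call at 56.3 and 46.4 against 51.5.

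Mitotic genes were mostly lower, about as much as genes of like abundance. Of 38 mitotic genes 31 were called lower and 2 higher, with a median of -0.47. Their median level was 30.8 FPKM. Genes of at least 30 FPKM had the same median log2 fold change, and 80.4% of them were called lower. CCNB1, cyclin B1, went from 88.0 and 92.5 to 50.9 FPKM (-0.81) and AURKA, a spindle kinase, from 40.2 and 41.5 to 22.8 (-0.81). MKI67, the proliferation antigen, went against the list from 22.6 and 23.7 to 39.0 (0.73), as did the phosphatase CDC25B (0.48), while PLK1 was without a call (0.12). Of 45 S phase genes 33 were called lower and 5 higher, and their median of -0.24 did not lie below that of genes of at least 10 FPKM. The lower calls numbered 18 with upper-quartile scaling, 20 without control replicate 1 and 21 without control replicate 2. CDT1, which licenses replication origins, was among the 5, from 27.2 and 25.2 to 47.9 (0.85).

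Replication-dependent histone genes, whose mRNAs end in a stem-loop instead of a poly(A) tail and are made in S phase, had 47 of 51 tested members called lower and 0 higher, with a median of -0.98. Genes of at least 30 FPKM had 80.4% called lower and a median of -0.47. H3C13 went from 598 and 585 FPKM to 154 (-1.94), H3C1 from 706 and 697 to 226 (-1.63), and H2AC4 from 418 and 396 to 146 (-1.47). H2AC18 went from 19.6 and 27.1 to 4.72 (-2.07). Many histone genes have near-identical copies, so single values are uncertain where counting could split reads.

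Metabolic enzymes outside the glutamine pathways were mostly lower or without a call. Of 22 glycolytic and glucose uptake genes 12 were called lower and 1 higher, with a median of -0.31, near that of abundant genes; PGAM1 fell from 165 and 168 to 97.0 FPKM (-0.77) and LDHB from 393 and 387 to 236 (-0.72), and the hexokinases HK1 (-0.04) and HK2 (-0.07) had no call. MLXIP, encoding the glucose-sensing factor MondoA, rose from 2.69 and 2.86 to 8.12 (1.27 ± 0.06) and its target TXNIP from 6.12 and 6.31 to 9.81 (0.58), whereas the target ARRDC4 had no call (-0.07) and MLX, the partner of MondoA, fell (-0.40). Of 27 sterol genes 18 were called lower and 3 higher, with a median of -0.30. These values were near those of genes of at least 10 FPKM, 65.7% lower and 9.95% higher with a median of -0.32. The enzymes IDI1 (-0.95) and MSMO1 (-0.95) fell, and their transcription factors SREBF2, from 12.9 and 12.9 to 21.4 (0.68), and SREBF1 (0.62) rose.

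**Figure D5:**
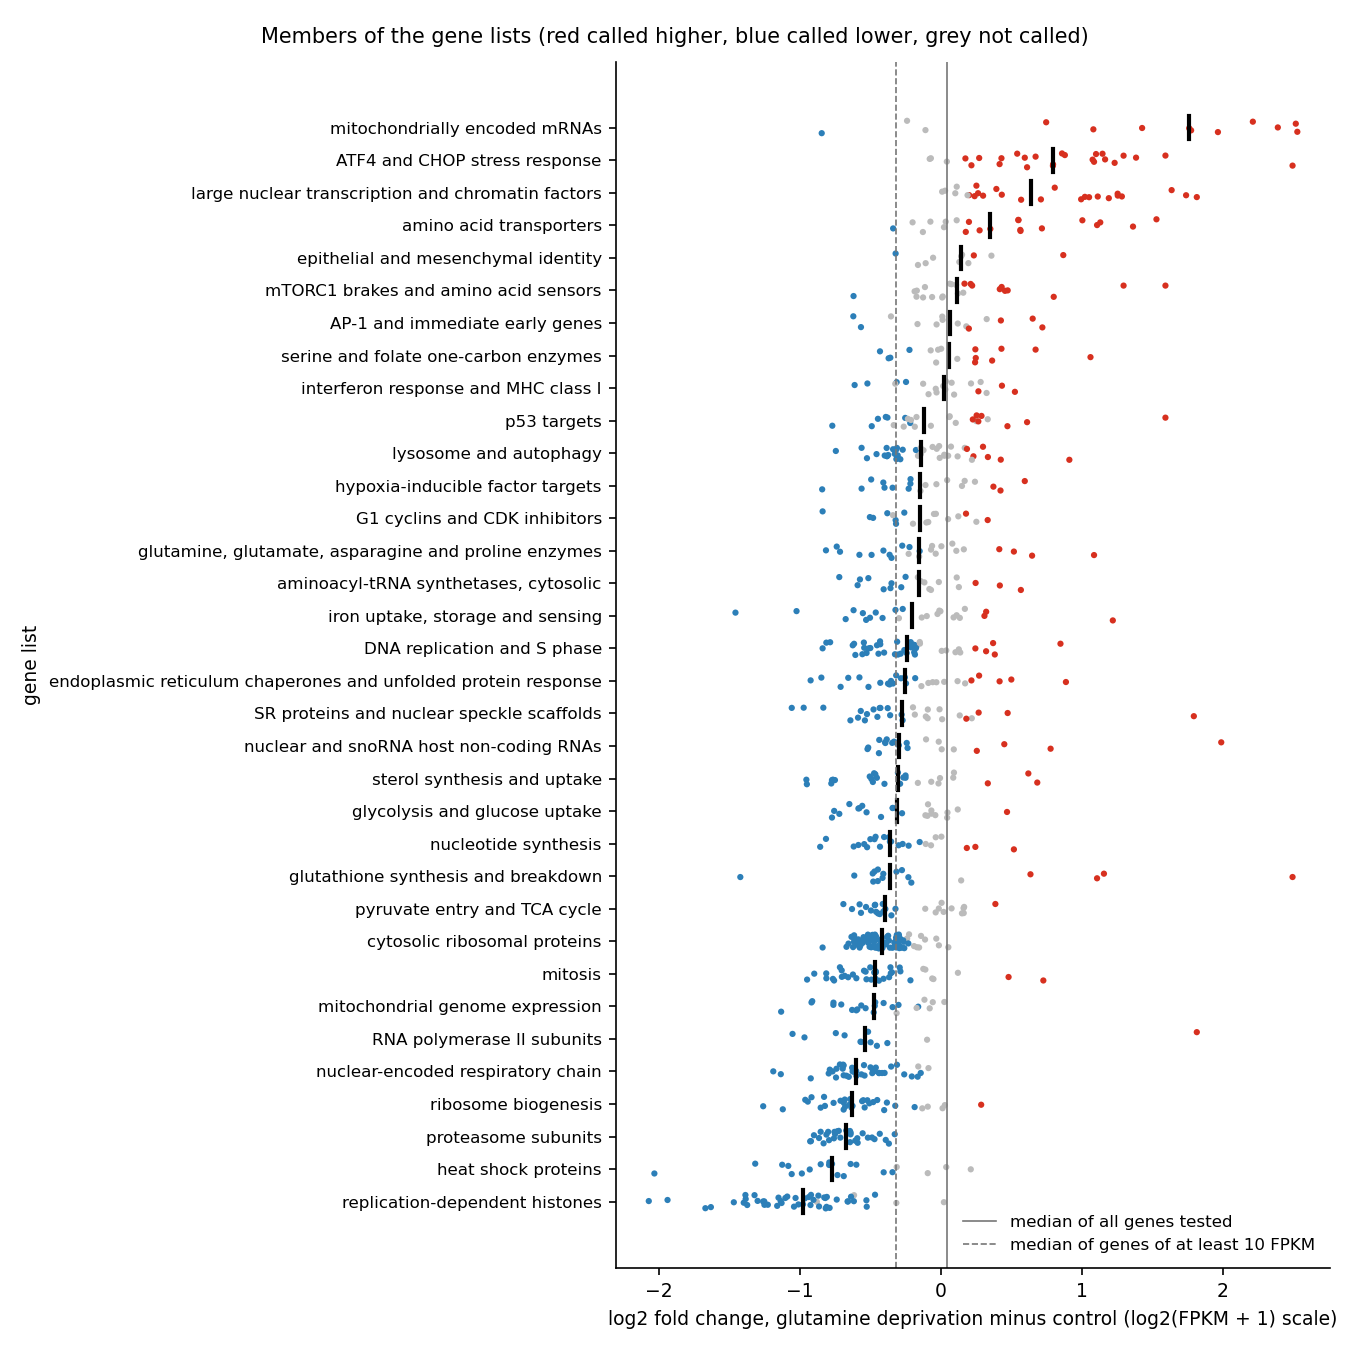
Log2 fold change of each tested member (points, red called higher, blue called lower, grey not called) in the gene lists with at least 10 tested members (rows), with the list median as a black bar and the medians of all genes (0.04, solid line) and of genes of at least 10 FPKM (-0.32, dashed line). Mitochondrially encoded mRNAs have the highest median, 1.76, and replication-dependent histones the lowest, -0.98.

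Against glucose deprivation, where serum was dialyzed on both sides, 7382 of 16598 genes (44.5%) were called, 22.4% higher and 22.1% lower in glutamine deprivation. All comparisons use the same glutamine-deprived library, so values are given side by side. CHAC1 was at 2.09 and 2.46 FPKM in glucose deprivation against 9.65 (1.70 ± 0.20, adjusted p = 0.000562), SESN2 at 19.7 and 20.7 against 49.4 (1.25 ± 0.05, adjusted p = 2.89e-05) and DDIT4 at 22.4 and 21.9 against 57.2 (1.33 ± 0.11, adjusted p = 0.000122). Each was higher in glutamine deprivation than in the other 4 libraries. DDIT3 was lower in glutamine than in glucose deprivation, 15.3 against 34.1 and 33.5 FPKM (-1.09 ± 0.06), and so was ASNS, 48.4 against 70.6 and 69.9 (-0.53 ± 0.06). ATF4 and CHOP genes as a list had 7 of 26 called higher and 10 lower.

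TFRC was at 59.2 and 58.8 FPKM in glucose deprivation against 18.6 (-1.62 ± 0.05, adjusted p = 9.24e-06), POLR2A at 21.1 and 17.7 against 46.4 (1.22 ± 0.11, adjusted p = 0.000194) and MT-CYB at 70.7 and 58.6 against 421 (2.69 ± 0.10, adjusted p = 1.84e-05). The 3 genes thus differed from glucose deprivation in the same direction as from control. Of the mitochondrially encoded mRNAs 11 of 13 were called higher and 0 lower than in glucose deprivation, with a median of 2.04. Endoplasmic reticulum chaperones and unfolded protein response genes had 23 of 28 called lower and 3 higher (median -0.81), and ribosomal protein genes 79 of 82 lower and 1 higher (median -0.61). TXNIP, at 1.36 and 1.17 FPKM in glucose deprivation against 9.81, was higher by 2.26 ± 0.08. Histone genes had 28 of 51 called higher and 3 lower (median 0.39), with H3C1 at 76.8 and 85.3 against 226.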

How the data were processed

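Paired reads of 150 bases came from total RNA. The submitters' processing notes list HISAT2 2.0.5, StringTie and hg38 as tools and build; annotation and strand setting are not given in the sources used here. Values as the authors deposited them are read as FPKM. That unit is an inference, since no header gives it: low values of single-exon genes lie on steps of whole reads (95.1% to 95.8% of values of up to 20 reads within 0.05 reads), and these steps gave the depth. The glutamine table holds 1 value column under the name of glucose deprivation replicate 2, which differs from that replicate in 31710 of 59609 values. Its name fits another sample, so it was neither mapped nor used.

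FPKM were scaled by a trimmed mean of log ratios (30% of ratios and 5% of abundances; factors 0.960 and 0.971 for control, 1.01 and 0.979 for glucose deprivation, 1.08 for glutamine deprivation). Genes of at least 1 scaled FPKM in at least 1 library were tested on log2(FPKM + 1) in R 4.3.3 with limma 3.58.1, with a coefficient per group, 2 residual degrees of freedom and a variance trend on inferred reads from GENCODE 29 exon lengths, without the robust option, with two-sided Benjamini-Hochberg adjusted p-values and a threshold of 0.05. The filter was first set on unscaled FPKM and moved to scaled FPKM after seeing the tables. The script was run on simulated data in which 200 genes changed, far fewer than were called here. That run cannot show how the scaling or the error rate behaves in these data.

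Genes were named by a rule: the 12 largest rises and falls by log2 fold change with a mean log2(FPKM + 1) of at least 3, 5 markers of the comparison, the extreme and contrary members of each gene list, glutamine genes, and all mitochondrially encoded mRNAs, RNA polymerase II subunits and glutathione genes. Other members of the lists were added after their values were seen. The members and lists were chosen with earlier results of these data known. Lists are described by counts and medians, without a set test, and some members are not reported here. Alternatives covered scaling, pseudocount, filter, variance model, the libraries entered, the replicate number as a block and a GC and length trend.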

Additional observations from a re-analysis of the deposited data

How the results depend on the processing

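Each choice was changed on its own. Against 4096 genes called higher, 4382 lower, 403 at least 2-fold higher and 118 at least 2-fold lower, upper-quartile scaling gave 6130, 2853, 636 and 48, and no scaling gave 5947, 2866, 632 and 51. A pseudocount of 0.1 gave 1031 genes at least 2-fold higher, as low genes then show larger log2 differences. Leaving out 1 library each gave 5537 (without control replicate 2) to 8439 called genes, 2330 (without control replicate 1) to 3992 higher, 3188 to 4447 lower, 296 to 435 at least 2-fold higher and 111 to 128 at least 2-fold lower; the lowest counts of calls, 5620 and 5537, were those without a control. A replicate block over the numbers in the labels gave 7544 calls. The labels do not say that the numbers pair samples, and the deviations of same-numbered control and glucose-deprived libraries correlated at -0.02 across genes.

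Of 204 named genes with a call 146 were called in all 14 alternatives run and 58 lost the call in at least 1, most often with no filter on low values (48 genes), without control replicate 2 (34) and without control replicate 1 (31). KCNQ1OT1 reversed: its log2 fold change of 0.45 became -0.23 with the trend over GC content and exon length removed, and the cause was not tested. Fits without either glutamine-deprived library were not run, since replicate 1 is the only one mapped. A difference rests on 1 deprived library of about 34530000 inferred reads, with a median SE of 0.08 on the log2 scale.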

Other observations

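Several types of transcript outside protein-coding genes had more higher than lower calls in glutamine deprivation. Low RNAs can enter the test through the glutamine-deprived library alone, where they are high, so counts over those tested are a description: of 2069 genes with a mean under 1 FPKM 481 were called higher and 4 lower. Of 345 sense intronic RNAs tested 100 were called higher and 3 lower, with a median log2 fold change of 0.39. Long intergenic RNAs had 174 of 591 called higher and 19 lower, antisense RNAs 201 of 713 and 23, and processed pseudogenes 175 of 667 and 37. Among genes of at least 1 FPKM in at least 2 libraries, the counts were 85 higher and 3 lower of 286 sense intronic, 142 and 18 of 465 long intergenic, and 163 and 24 of 560 antisense RNAs. Small nucleolar RNAs were an exception, with 2 of 171 called higher and 28 lower. Protein-coding genes had 2879 of 11888 called higher and 4148 lower, with a median of -0.04. These types also differ in abundance and length, whose part was not tested, and antisense and intronic RNAs cannot be told from their host genes without strand.

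Other regulatory lists held calls in both directions, as did all genes tested, of which 24.7% were called higher and 26.4% lower. The p53 counts and the higher calls of immediate early genes lay near those shares. The interferon and MHC class I counts lay below them. Of 26 p53 targets 7 were called higher and 7 lower, with a median of -0.12 that became 0.09 with upper-quartile scaling, and higher calls numbered 4 and 2 without control replicate 1 and 2; CDKN1A, the inhibitor p21, was without a call at 6.22 and 4.85 FPKM in the controls against 6.74. Of 14 immediate early genes tested 4 were called higher, among them JUN, from 15.6 and 15.2 to 26.0 FPKM (0.72), and JUND, from 14.1 and 13.2 to 21.9 (0.65). Of 39 lysosome and autophagy genes 18 were called lower and 6 higher, with a median of -0.14 that became 0.01 with upper-quartile scaling, and 3 were higher without either control. ULK1, the kinase that starts autophagy, rose from 1.97 and 2.06 to 4.67 FPKM (0.91), and CTSL, a lysosomal protease, fell from 30.04 and 30.7 to 17.7 (-0.74). Of 19 hypoxia targets 9 were called lower and 3 higher, or 5 lower without control replicate 1 and with upper-quartile scaling, with ADM, a secreted peptide, at 6.25 and 7.22 against 3.31 (-0.84). Of 20 interferon and MHC class I genes 4 were called lower and 3 higher, and the higher calls numbered 1 and 0 without control replicate 1 and 2; B2M, the light chain of MHC class I, went from 25.4 and 25.6 to 16.3 (-0.61).

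Short RNAs lay at both ends of the ranking by fold change. SNORD3D, a U3 small nucleolar RNA, stood at 73.0 and 13.3 FPKM in the controls against 0.122 (-4.86 ± 0.83), and the ribosomal RNA gene RNA5-8SN2 at 5.75 and 208 against 0.524 (-4.62 ± 1.55, adjusted p = 0.0384). The controls of both differed widely from each other. RNA5-8SN2 had no call without glucose deprivation replicate 1 (adjusted p = 0.124) or 2 (adjusted p = 0.133), and SNORD3D none with robust moderation (adjusted p = 0.131). SNORD70 was at 13.7 and 13.4 against 3.64 (-1.65) and SNORD11B at 12.7 and 8.88 against 3.26 (-1.45), the latter without a call when control replicate 1 was left out (adjusted p = 0.06). MIR3648-1, in a gene of 180 bases, was at 8.48 and 29.5 FPKM against 128 (2.92 ± 0.64), without a call under robust moderation (adjusted p = 0.185), and MIR196A1 at 7.97 and 9.02 against 36.2 (1.97 ± 0.30).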
